A study of Mus musculus with 12 samples.

Results

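The 10 genes described here encode the enzymes that carry glycerol 3-phosphate to diacylglycerol: the glycerol 3-phosphate acyltransferases *Gpam*, *Gpat3* and *Gpat4*, the acylglycerol phosphate acyltransferases *Agpat1* to *Agpat5*, and the phosphatidic acid phosphatases *Lpin1* and *Lpin2*. They were listed by name, by a rule that uses no measured value although earlier results of these data were known, and all 10 of them were among the 53379 genes of the count table. All 10 also passed the filter on low counts, as did 12386 genes of the table. RNA was measured in bone marrow-derived macrophages (BMDMs) of 4 C57Bl/6J mice, adult males according to the methods, which were grown in medium conditioned by L929 cells, a source of macrophage growth factor. The BMDMs of each mouse were split into 3 groups of 4 libraries: untreated, fenoterol at 1 µM for 1 h, and fenoterol at 1 µM for 4 h. Fenoterol is an agonist of the beta2-adrenergic receptor (B2AR), and no group carried a genetic change. All cultures stood in serum-containing growth medium, which was not replaced for the treatment.

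Diacylglycerol is built in the endoplasmic reticulum and at mitochondria in a series of steps, and each step is served by several enzymes encoded by separate genes. A GPAT puts the first fatty acid on glycerol 3-phosphate, which gives lysophosphatidic acid, an AGPAT adds the next one, which gives phosphatidic acid, and a lipin removes the phosphate. The product is used for triglyceride, the lipid of lipid droplets, and for membrane phospholipids, and macrophages that take up fatty acids store them this way.

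The RefSeq promoter sequences, which run from 250 bases before to 50 bases after a transcript start on GRCm38.p6, were matched for 8 of the 10 genes by symbol, with 12 starts in all. *Gpat4* and *Agpat5* were not matched. B2AR acts through cAMP and the factor CREB, which binds the cAMP response element, so both strands were searched for the full element TGACGTCA and for its core TGACG, which is also part of the full element. The full element was in 0 of the 12 promoters and in 1.79% of the 32851 promoters of the table. The core was in 4 of the 12, from 4 genes, and in 20.8% of all promoters of the same length. It lay 152 bases before the start of *Gpat3*, 54 bases before that of *Agpat4*, 12 bases before the first of the 3 starts of *Lpin2*, and 31 and 9 bases before the second start of *Gpam*. *Gpam*, which has the core at its second start, was not higher at either time (-0.12 at 1 h and -0.26 at 4 h on the log2 scale). *Agpat1*, which was higher at 4 h, lacks the core at both of its starts. No link between the core and the response was tested. The promoters of *Gpat3*, *Agpat4* and *Lpin2*, which have the largest changes below, are printed here with that of *Lpin1*, the other lipin, which has no such core here. They are written 5′ to 3′ on the strand of the gene, and capitals mark the core, in all 3 cases as its reverse complement. They lie at chr5:100845979-100846278 (plus strand), chr17:12119034-12119333 (plus strand), chr17:71183282-71183581 (plus strand) and chr12:16610917-16611216 (minus strand). A match of letters is a description and does not show that a factor binds.
Gpat3: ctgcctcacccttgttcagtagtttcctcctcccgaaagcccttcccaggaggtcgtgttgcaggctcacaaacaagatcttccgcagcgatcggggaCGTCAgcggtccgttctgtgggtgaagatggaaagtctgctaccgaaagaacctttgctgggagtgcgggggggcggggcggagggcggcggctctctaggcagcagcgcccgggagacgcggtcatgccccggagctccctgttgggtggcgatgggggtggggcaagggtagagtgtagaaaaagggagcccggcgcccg
Agpat4: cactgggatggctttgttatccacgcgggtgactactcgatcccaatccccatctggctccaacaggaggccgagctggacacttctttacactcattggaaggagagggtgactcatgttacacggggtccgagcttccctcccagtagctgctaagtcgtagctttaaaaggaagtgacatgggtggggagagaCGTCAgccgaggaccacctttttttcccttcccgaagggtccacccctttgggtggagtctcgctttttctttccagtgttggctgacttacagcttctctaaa
Lpin2: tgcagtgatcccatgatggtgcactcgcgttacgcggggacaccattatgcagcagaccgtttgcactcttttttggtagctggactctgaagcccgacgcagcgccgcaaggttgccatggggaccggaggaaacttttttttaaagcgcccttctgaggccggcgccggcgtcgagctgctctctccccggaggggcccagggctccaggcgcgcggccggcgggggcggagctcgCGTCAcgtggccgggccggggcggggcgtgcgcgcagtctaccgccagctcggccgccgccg
Lpin1: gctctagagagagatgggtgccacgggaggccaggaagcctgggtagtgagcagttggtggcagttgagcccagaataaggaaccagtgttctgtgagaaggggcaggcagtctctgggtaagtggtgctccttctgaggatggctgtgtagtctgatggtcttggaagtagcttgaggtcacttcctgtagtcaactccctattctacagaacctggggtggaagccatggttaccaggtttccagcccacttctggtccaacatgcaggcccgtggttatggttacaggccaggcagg

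The 12 libraries held 14580533 to 24153284 counts each. All 9 macrophage markers on the list were tested, and their summed level was 21459 to 26022 RPKM (reads scaled for exon length and library size). Most of this sum came from *Lyz2*, at 15184 to 19942. The sum was 36.8 to 72.2 for 7 markers of neutrophils and their precursors and at most 7.91 for 5 stromal markers. T and B cell markers summed to at most 0.144, dendritic cell markers to at most 0.379 and adipocyte markers to at most 0.0495, with *Plin1*, *Lep*, *Cidec* and *Cfd* at 0 counts in all 12 libraries. None of the tested markers of other cell types passed the threshold at 1 h or 4 h (5 neutrophil, 3 stromal and 1 dendritic cell marker tested). Of the macrophage markers, *Cd14* (2.39 on the log2 scale) was among those higher at 1 h and *Mertk* (-0.20) was lower, where 10.0% of all tested genes were higher and 10.1% lower. At 4 h, *Cd14* (2.52), *Fcgr1* (0.72) and *Itgam* (0.42) were among those higher and *Mertk* (-1.51), *Csf1r* (-0.26), *Cd68* (-0.22) and *Adgre1* (-0.21) were lower, where 19.7% of all tested genes were higher and 20.4% lower. Their part in the results was not tested. In cultures measured in bulk, fewer cells that express a gene and less RNA per cell cannot be told apart.

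After fenoterol, the 10 genes did not move together. At 1 h, *Gpat3*, *Gpat4*, *Agpat4* and *Lpin2* were higher than in untreated BMDMs and 0 of the 10 were lower, at an adjusted p below 0.05 by the quasi-likelihood test of edgeR over all tested genes. Over all tested genes, 10.0% were higher and 10.1% lower. At 4 h, 5 of the 10 were higher (*Agpat1* joined the 4) and 1, *Agpat2*, was lower, where 19.7% of all tested genes were higher and 20.4% lower. Between the time points, *Agpat1* and *Agpat4* were higher and *Agpat2* and *Agpat3* lower at 4 h than at 1 h, where 18.7% of all tested genes were higher and 19.8% lower. When libraries were scaled by size only, this last split was 3 and 1, since *Gpat4* passed (0.14, adjusted p = 0.0185) and *Agpat3* did not, where 28.3% of all tested genes were higher and 14.8% lower. The median log2 fold change of the 10 was 0.10 at 1 h, 0.13 at 4 h and -0.17 between the time points, and that of all tested genes was -0.00486, 0.0042 and 0.00745. The 3 comparisons share libraries, so that they are not independent of each other.

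Since libraries of the same number came from the same mouse, the fit was repeated with the mouse as a block. At 1 h, 5 of the 10 genes were then higher and 1 lower, against 13.3% and 13.7% of all tested genes. At 4 h, 5 were higher and 4 lower, against 23.6% and 23.8%. Between the time points, 2 were higher and 4 lower at 4 h, against 23.0% and 23.6%. With mouse 4 left out of this fit, 2 were higher and 5 lower between the time points, against 20.8% and 21.6%. The added calls were *Agpat5* and *Lpin1* at 1 h, *Gpam*, *Agpat3* and *Lpin1* at 4 h, and *Lpin1* and *Lpin2* between the time points, and the values of these genes are given below with and without the block. It changed no other call among the 10. Replicate numbers and mouse numbers are the same. In the following, the normalized count is the read count scaled by the TMM method to the mean library size, and fold changes are log2 values with their standard error (SE).

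**Figure D1:**
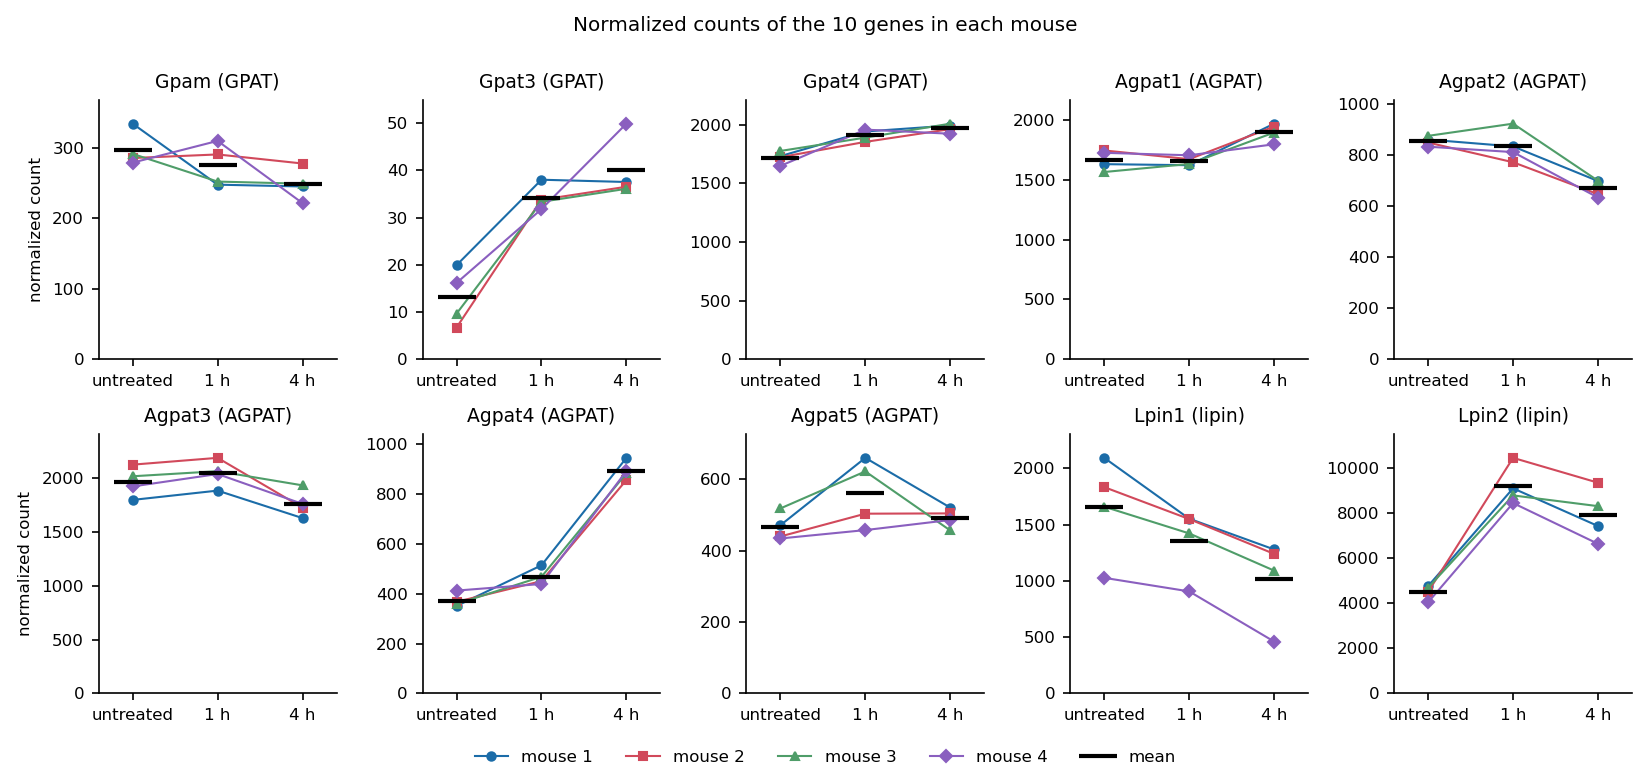
Normalized counts (vertical axis, from 0) of the 10 genes in untreated BMDMs and after 1 h and 4 h of fenoterol, with 1 line per mouse and black bars for the mean of 4 libraries. *Agpat4* climbed from 372 to 894 and *Lpin2* from 4506 to 9205 at 1 h, while the *Lpin1* line of mouse 4 lay under those of the other mice in every group.

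At the GPAT step, the smallest and the largest genes by level both rose. *Gpat3* (ENSMUSG00000029314, chr5:100845713-100899102 on GRCm38, plus strand) encodes a GPAT of the endoplasmic reticulum. Its normalized counts in mice 1 to 4 were 19.9, 6.7, 9.6 and 16.2 untreated, 38.0, 33.8, 33.3 and 31.8 at 1 h, and 37.5, 36.5, 36.1 and 49.9 at 4 h. Every treated library lay above every untreated one. This was a log2 fold change of 1.34 (SE 0.28, adjusted p = 0.00304 by edgeR) at 1 h and 1.57 (SE 0.27, adjusted p = 0.000328) at 4 h. The 2 times did not differ by more than their spread (0.23, 95% interval -0.33 to 0.79, adjusted p = 0.502). Without 4 h replicate 4 this value was 0.10 (adjusted p = 0.806). These values rest on few reads, 5 to 23 per untreated library, 30 to 37 at 1 h and 35 to 64 at 4 h. Only 2 of the 4 untreated libraries reached the level of the filter (0.504 CPM), so *Gpat3* passed it through its treated libraries, and without the filter the log2 fold changes were 1.34 and 1.58. A gene on the opposite strand, *4930458D05Rik*, overlaps 30.0% of the exon bases of *Gpat3*, and it held 20 counts over the 12 libraries against 359 for *Gpat3*.

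*Gpat4* (ENSMUSG00000031545, chr8:23171265-23208346, minus strand) encodes the other GPAT of the endoplasmic reticulum. It had 1731, 1722, 1775 and 1648 normalized counts in untreated BMDMs of mice 1 to 4, 1941, 1853, 1889 and 1957 at 1 h, and 1992, 1962, 2008 and 1922 at 4 h. The groups did not overlap between untreated and treated BMDMs, although the rise was small. The log2 fold change was 0.15 (SE 0.044, adjusted p = 0.0232 by edgeR) at 1 h and 0.20 (SE 0.044, adjusted p = 0.00217) at 4 h. The 1 h call was lost when scaling used library size only (0.0835, adjusted p = 0.195), without the filter on low counts (adjusted p = 0.115) and without untreated replicate 4 (0.14, adjusted p = 0.0743), 1 h replicate 1 (adjusted p = 0.0580) or 1 h replicate 4 (adjusted p = 0.0579). With the mouse as a block the 1 h call held (adjusted p = 0.0215), but not when mouse 1 (adjusted p = 0.0895), mouse 2 (adjusted p = 0.0595) or mouse 4 (adjusted p = 0.124) was also left out. The call at 4 h held in all of these.

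*Gpam* (ENSMUSG00000024978, chr19:55067268-55127238, minus strand) encodes the GPAT of the outer mitochondrial membrane. In mice 1 to 4, its normalized counts were 334, 286, 291 and 279 untreated, 248, 291, 252 and 309.8 at 1 h, and 245, 278, 249 and 221 at 4 h. At 1 h it was higher in 2 mice and lower in 2, and at 4 h it was lower in 4 of 4 mice. On the log2 scale the difference was -0.12 at 1 h (adjusted p = 0.508 by edgeR), and -0.18 to -0.05 with 1 library left out. At 4 h it was -0.26 (SE 0.10, adjusted p = 0.0547), which did not pass, and with the mouse as a block -0.27 (adjusted p = 0.0355), which did. Without the block it also passed with limma-voom (-0.28, adjusted p = 0.0369), with a mean count of at least 50 (adjusted p = 0.0499) and without 4 h replicate 2 (-0.32, adjusted p = 0.0357). That blocked call was lost without mouse 1 (-0.20, adjusted p = 0.165), mouse 3 (adjusted p = 0.0748) or mouse 4 (adjusted p = 0.0702).

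At the AGPAT step, *Agpat4* rose at both times while *Agpat2* fell at 4 h only. *Agpat4* (ENSMUSG00000023827, chr17:12118704-12219645, plus strand) encodes an AGPAT that is known at mitochondria. Its normalized counts in mice 1 to 4 were 351, 367, 359 and 412 untreated, 514, 451, 468 and 439 at 1 h, and 945, 856, 883 and 892 at 4 h. The 3 groups did not overlap, and the values climbed from each to the next in 4 of 4 mice. On the log2 scale *Agpat4* rose by 0.33 (SE 0.070, adjusted p = 0.00345 by edgeR) at 1 h and by 1.26 (SE 0.069, adjusted p = 2.78e-09) at 4 h. Most of the rise came after 1 h, with 0.93 (SE 0.068, adjusted p = 8.94e-08) between the time points. In single mice, the change at 1 h was 0.09 to 0.55 and that at 4 h was 1.11 to 1.43 on the log2 scale.

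*Agpat2* (ENSMUSG00000026922, chr2:26593057-26604417, minus strand) encodes an AGPAT of the endoplasmic reticulum whose loss in people causes a lack of adipose tissue. It had 862, 849.8, 876 and 834 normalized counts in untreated BMDMs of mice 1 to 4, 835, 773, 924 and 812 at 1 h, and 699, 647, 699.9 and 634 at 4 h. All 4 libraries of 4 h lay below the 8 others. Its log2 fold change was -0.03 (adjusted p = 0.781 by edgeR) at 1 h, -0.35 (SE 0.061, adjusted p = 0.000288) at 4 h and -0.32 (SE 0.061, adjusted p = 0.000767) between the time points. *Egfl7* overlaps 3.0% of its exon bases on the opposite strand.

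*Agpat1* (ENSMUSG00000034254, chr17:34604262-34613449, plus strand) encodes the other well-studied AGPAT of the endoplasmic reticulum. Mice 1 to 4 had normalized counts of 1631, 1745, 1565 and 1725 untreated, 1622, 1673, 1632 and 1705 at 1 h, and 1969, 1945, 1895 and 1797 at 4 h. The untreated and 1 h values lay over each other, and all 4 libraries of 4 h lay above both. Its log2 fold change was -0.00697 (95% interval -0.12 to 0.11, adjusted p = 0.955 by edgeR) at 1 h, and its sign turned under some settings. At 4 h it was 0.19 (SE 0.050, adjusted p = 0.00724), and between the time points it was 0.20 (SE 0.050, adjusted p = 0.00626).

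*Agpat3* (ENSMUSG00000001211, chr10:78269178-78352489, minus strand) encodes an AGPAT of the endoplasmic reticulum and Golgi. It had 1800.4, 2129, 2020.4 and 1926 normalized counts in untreated BMDMs of mice 1 to 4, 1887, 2192, 2068 and 2041 at 1 h, and 1631, 1729, 1936 and 1763 at 4 h. The mice kept much of their own level, and the groups overlapped between untreated and each time. The value at 1 h was 0.06 (adjusted p = 0.644 by edgeR), and -0.0118 when libraries were scaled by size only. At 4 h the value was -0.16 (SE 0.068, adjusted p = 0.0819), and with the mouse as a block it was -0.16 (SE 0.050, adjusted p = 0.0167). That blocked call was lost without mouse 1 (adjusted p = 0.0505) or mouse 2 (-0.11, adjusted p = 0.152). Without the block, the call at 4 h was gained without untreated replicate 1 (adjusted p = 0.0406) or 4 h replicate 3 (adjusted p = 0.0333). Between the time points the change was -0.21 (SE 0.068, adjusted p = 0.0221), lower in 4 of 4 mice. This call was lost with scaling by library size only (-0.12, adjusted p = 0.179) and without 1 h replicate 2 (adjusted p = 0.0711), 4 h replicate 1 (adjusted p = 0.0695) or 4 h replicate 2 (adjusted p = 0.0532), while it held with the mouse as a block (adjusted p = 0.00214).

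*Agpat5* (ENSMUSG00000031467, chr8:18846277-18891361, plus strand) encodes an AGPAT that is known at mitochondria. Mice 1 to 4 had normalized counts of 471, 439.6, 518 and 434 untreated, 659.8, 503, 622 and 458 at 1 h, and 520.5, 504, 456 and 486 at 4 h. The groups overlapped, though each mouse was higher at 1 h than untreated. The log2 fold change at 1 h was 0.27 (SE 0.11, adjusted p = 0.100 by edgeR), and 0.26 (SE 0.087, adjusted p = 0.0337) with the mouse as a block. The blocked call was lost without mouse 1 (0.18, adjusted p = 0.245), mouse 2 (adjusted p = 0.0663) or mouse 3 (adjusted p = 0.0537). Without 1 h replicate 4, *Agpat5* passed at 1 h (0.35, adjusted p = 0.0193) and between the times (-0.28, adjusted p = 0.0376) with no block. At 4 h the value was 0.08 (95% interval -0.16 to 0.32, adjusted p = 0.617), and 0.03 to 0.12 with 1 library left out. *Gm35934* overlaps 18.9% of its exon bases on the opposite strand and had 0 counts in the 12 libraries.

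At the lipin step, *Lpin2* rose at both times, and *Lpin1* had lower values in every mouse. *Lpin2* (ENSMUSG00000024052, chr17:71182560-71249817, plus strand) encodes the lipin whose loss in people causes the autoinflammatory Majeed syndrome. Its normalized counts in mice 1 to 4 were 4767, 4514, 4696 and 4046 untreated, 9109, 10462, 8794 and 8455 at 1 h, and 7433, 9359, 8317 and 6644 at 4 h. Every treated library lay above every untreated one, and every mouse was lower at 4 h than at 1 h. The log2 fold change was 1.03 (SE 0.098, adjusted p = 2.03e-06 by edgeR), or 2.04-fold, at 1 h and 0.82 (SE 0.098, adjusted p = 1.00e-05), or 1.76-fold, at 4 h. Between the time points it was -0.21 (SE 0.097, adjusted p = 0.0983), and with the mouse as a block -0.22 (SE 0.059, adjusted p = 0.00595). The blocked call held with each mouse left out in turn. With no block, the difference passed without 4 h replicate 2 (-0.30, adjusted p = 0.0197). It was smaller without 4 h replicate 4 (-0.14, adjusted p = 0.271) and with scaling by library size only (-0.12, adjusted p = 0.313).

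*Lpin1* (ENSMUSG00000020593, chr12:16535669-16610966, minus strand) encodes the lipin that is prominent in adipose tissue and muscle. Its normalized counts in mice 1 to 4 were 2094, 1834, 1659.6 and 1027 untreated, 1553, 1549.8, 1422 and 907 at 1 h, and 1279.8, 1240.3, 1092 and 461 at 4 h. Mouse 4 was the lowest in each group, and in each of the 4 mice the value was lower at 1 h than untreated and lower again at 4 h. Without the mouse in the fit, the log2 fold change did not pass at 1 h (-0.29, SE 0.28, adjusted p = 0.554 by edgeR), at 4 h (-0.71, SE 0.28, adjusted p = 0.0595) or between the times (-0.42, SE 0.28, adjusted p = 0.267). With the mouse as a block it passed at 1 h (-0.27, SE 0.086, adjusted p = 0.0264), at 4 h (-0.74, SE 0.087, adjusted p = 1.69e-06) and between the times (-0.47, SE 0.087, adjusted p = 0.000292). The blocked calls at 4 h and between the times held with each mouse left out, at -0.63 and -0.33 without mouse 4. The blocked call at 1 h held without mouse 4 (-0.30, adjusted p = 0.00108) and was lost without mouse 1 (-0.22, adjusted p = 0.163), mouse 2 (adjusted p = 0.0701) or mouse 3 (adjusted p = 0.0713). Without the block, the call at 4 h was gained without the filter on low counts (adjusted p = 0.00904) and without untreated replicate 4 (-0.89, adjusted p = 0.0211), 1 h replicate 4 (adjusted p = 0.0492) or 4 h replicate 1 (adjusted p = 0.0491). Without 4 h replicate 4 the values with no block were smaller, at -0.46 for 4 h (adjusted p = 0.115) and -0.17 between the times (adjusted p = 0.576). At 1 h they ranged from -0.45 without untreated replicate 4 to -0.13 without 1 h replicate 4, and 0 of the 12 such fits passed.

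**Figure D2:**
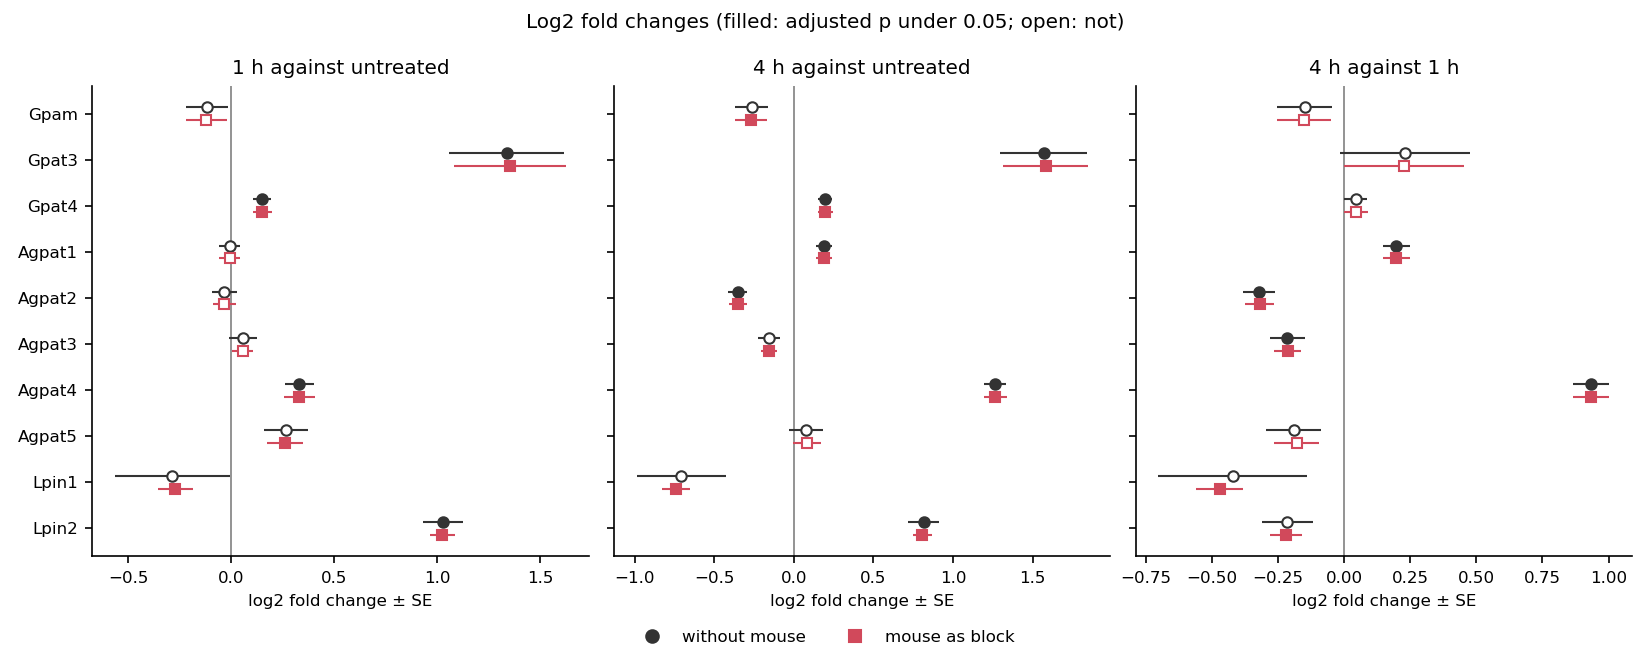
Log2 fold changes with their SE (horizontal axis) of the 10 genes in the 3 comparisons, without the mouse (circles) and with it as a block (squares), filled where the adjusted p was below 0.05. The SE of *Lpin1* at 4 h is 0.28 without the mouse and 0.087 with it, while the fold changes are -0.71 and -0.74.

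To compare levels between genes, counts were also divided by the length of the exons, and these levels are given as RPKM. In untreated BMDMs the order was *Agpat1* (28.3 ± 1.43, SD, n = 4), *Agpat2* (20.5 ± 0.431), *Lpin2* (18.8 ± 1.35), *Gpat4* (13.1 ± 0.404), *Agpat3* (12.9 ± 0.913), *Lpin1* (8.72 ± 2.39), *Agpat4* (7.03 ± 0.521), *Gpam* (2.28 ± 0.191), *Agpat5* (2.20 ± 0.182) and *Gpat3* (0.191 ± 0.0876). The libraries of *Gpat4* and *Agpat3*, of *Lpin1* and *Agpat4*, and of *Gpam* and *Agpat5* overlapped, so these neighbours could not be ordered. At 1 h *Lpin2* was the highest of the 10, at 38.4 ± 3.67, above *Agpat1* at 28.2 ± 0.650 with no overlap. At 4 h *Lpin2* (33.1 ± 4.87) and *Agpat1* (32.3 ± 1.30) overlapped, and *Agpat4* (16.9 ± 0.702) had come to overlap *Agpat2* (16.0 ± 0.822). *Gpat3* was the lowest in all 3 groups, at 0.498 ± 0.0388 at 1 h and 0.583 ± 0.0963 at 4 h. The order depends on the length used, except that *Gpat3* was the lowest in every group by all 3 lengths tried (exons, longest transcript and coding sequence). By coding length, the untreated order began with *Agpat1* (99.4 ± 5.02), *Agpat3* (89.0 ± 6.31) and *Lpin2* (82.2 ± 5.92), each overlapping the next, with *Gpat4* (64.1 ± 1.97) and *Agpat2* below them. By the longest transcript, *Lpin2* (40.7 ± 2.93) and *Agpat1* (38.8 ± 1.96) overlapped at the top. At 1 h *Lpin2* was the highest by all 3 lengths, with no overlap, and at 4 h it lay above *Agpat1* with no overlap by the longest transcript and by coding length.

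**Figure D3:**
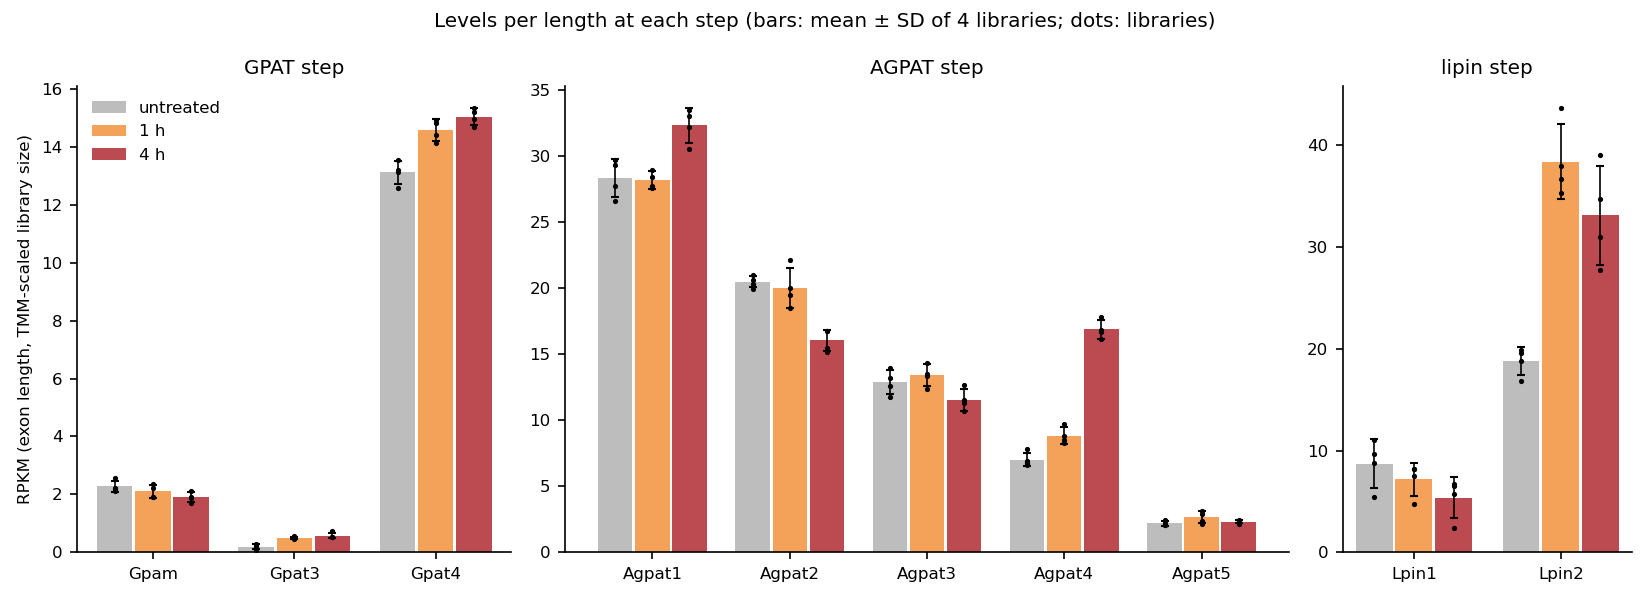
Levels in RPKM (vertical axes, from 0 and of different range) at the GPAT, AGPAT and lipin steps, as mean ± SD of 4 libraries (bars) with each library as a dot. At 4 h the *Agpat4* bar (16.9) stands beside that of *Agpat2* (16.0), and the *Lpin2* bars stand at 18.8, 38.4 and 33.1.

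Within each step, the share of a gene is its level per length as a percent of the sum of the step. At the GPAT step *Gpat4* held 84.2% ± 1.36 (SD, n = 4) untreated, 84.9% ± 1.02 at 1 h and 85.8% ± 0.639 at 4 h. *Gpam* went from 14.6% ± 0.896 to 12.2% ± 1.20 and 10.8% ± 0.891, and *Gpat3* from 1.22% ± 0.556 to 2.90% ± 0.246 and 3.33% ± 0.615. *Gpat3* thus stayed a small part of the transcripts of this step although it had the largest fold change of the 10.

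At the AGPAT step the share of *Agpat4* was 9.91% ± 0.636 untreated, 12.1% ± 0.847 at 1 h and 21.3% ± 0.779 at 4 h. The share of *Agpat2* was 28.9% ± 1.20, 27.4% ± 1.58 and 20.3% ± 0.529, and that of *Agpat3* 18.2% ± 0.985, 18.3% ± 1.20 and 14.6% ± 1.11. *Agpat1* held 39.9% ± 1.33, 38.6% ± 1.45 and 40.8% ± 1.05, and *Agpat5* 3.11% ± 0.314, 3.62% ± 0.586 and 2.94% ± 0.173. For *Agpat4* and *Agpat2* the 4 h shares did not overlap those of the other groups. The order of these shares depends on the length used: by coding length, *Agpat3* (31.9%) lay above *Agpat2* (18.8%) in untreated BMDMs, and at 4 h *Agpat2* and *Agpat4* were at 13.8% and 13.5%.

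At the lipin step *Lpin2* held 68.8% ± 5.02 untreated, 84.4% ± 2.57 at 1 h and 86.4% ± 4.08 at 4 h, and *Lpin1* the rest, 31.2%, 15.6% and 13.6%. The untreated libraries ranged from 64.3% to 75.7% for *Lpin2* and the treated ones from 82.1% to 91.9%, with no overlap. The summed level of the step was 27.5 ± 3.67 RPKM untreated, 45.5 ± 4.89 at 1 h and 38.4 ± 6.43 at 4 h. The sums of the other steps moved less, from 15.6 ± 0.507 to 17.2 ± 0.441 and 17.5 ± 0.296 at the GPAT step and from 70.9 ± 1.76 to 73.0 ± 1.42 and 79.1 ± 2.16 at the AGPAT step. Shares and sums were not tested, since they are built from the same counts as the fold changes.

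The rest of the pathway was described from a list of 58 genes, of which 57 were in the table and 45 were tested. At 1 h, 7 of the 45 were higher and 1 lower, at 4 h 14 were higher and 6 lower, and between the time points 8 were higher and 10 lower at 4 h. Over all tested genes the shares were 10.0% and 10.1% at 1 h, 19.7% and 20.4% at 4 h, and 18.7% and 19.8% between the times, and the counts of each list below stand against these. The single lists are short, and nothing is read from their counts beyond the genes named. When libraries were scaled by size only, the higher and lower counts among the 45 were 3 and 2, 14 and 6, and 15 and 7, against 7.66% and 15.9%, 21.5% and 18.8%, and 28.3% and 14.8% of all tested genes. The number called at 1 h was also 5 without untreated replicate 4 or without 1 h replicate 3. The median log2 fold change of the 45 was 0.09 at 1 h and 0.01 at 4 h. The other members of the same families, *Gpat2* and *Lpin3*, had at most 7 and 3 counts in a library and were not tested.

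Among 5 tested genes for the supply or use of glycerol 3-phosphate, 1 was higher at 1 h and 3 at 4 h. Of all tested genes, 10.0% and 19.7% were higher. *Gpd2*, the mitochondrial dehydrogenase that uses glycerol 3-phosphate, had 473 ± 20.5 normalized counts (SD, n = 4) untreated, 762 ± 68.7 at 1 h and 1757 ± 162 at 4 h, a log2 fold change of 0.69 and 1.89 (adjusted p = 1.97e-10 at 4 h by edgeR). *Gk*, glycerol kinase, was at 0.34 at 1 h (adjusted p = 0.265) and rose by 0.76 at 4 h (adjusted p = 0.00526).

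Of the genes that use diacylglycerol for triglyceride, 2 were tested, and *Dgat1*, an enzyme of the last step, was higher at both times, by 3.20 and 3.44 on the log2 scale. At 1 h the largest log2 fold change among the 10 genes before it in the pathway was 1.34. The other, *Dgat2*, was at -0.82 at 4 h (adjusted p = 0.289), and with the mouse as a block it was lower (-0.70, adjusted p = 0.0279). Its normalized counts were few and uneven, at 7.54 to 110 untreated and 17.2 to 51.1 at 4 h, and these ranges overlapped. The list for phospholipids made from diacylglycerol also holds enzymes that prepare the group joined to it, such as *Pcyt1a*, *Pcyt1b* and *Etnk1*. Of its 9 tested genes, 1 was lower at 1 h, and 2 were higher and 2 lower at 4 h. *Pcyt1a*, the rate-limiting enzyme of phosphatidylcholine synthesis, fell by 0.45 at 1 h and by 0.93 at 4 h (adjusted p = 7.18e-10 by edgeR), from 5841 ± 82.0 to 3075 ± 124 normalized counts (SD, n = 4). *Cept1*, which makes phosphatidylcholine and phosphatidylethanolamine, fell by 0.46 at 4 h (adjusted p = 0.00437). The 2 that were higher at 4 h, named here after their values were seen, changed by about as much as *Cept1*: *Etnk1*, an ethanolamine kinase, rose by 0.44 (adjusted p = 0.000287) and *Pcyt1b*, the paralogue of *Pcyt1a*, by 0.43 (adjusted p = 0.00306).

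Phosphatidic acid can also leave toward CDP-diacylglycerol, and of 7 tested genes of that branch, without the block, 0 passed at 1 h and 2 were higher at 4 h. These were *Pgs1*, which leads to cardiolipin (0.47, adjusted p = 0.00147 by edgeR), and *Cdipt*, the phosphatidylinositol synthase (0.18, adjusted p = 0.0140). With the mouse as a block, the CDP-diacylglycerol synthases *Cds1* (0.26, adjusted p = 0.0277) and *Cds2* (0.13, adjusted p = 0.0392) were higher at 1 h, and *Cds2* was lower at 4 h (-0.12, adjusted p = 0.0348). Of 4 tested lipid phosphate phosphatases, 1 passed at 4 h, *Plpp2*, which fell by 0.42 (adjusted p = 0.000320). Of 7 tested diacylglycerol kinases, which turn diacylglycerol back to phosphatidic acid and so oppose the lipins, 3 were higher at 1 h, and 1 was higher and 2 lower at 4 h. *Dgke* rose by 1.07 and 0.75 on the log2 scale at the 2 times, while *Dgkd* was higher by 0.17 at 1 h (adjusted p = 0.0239) and fell by 0.86 at 4 h (adjusted p = 6.01e-09).

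Of 8 tested lysophospholipid acyltransferases, which remodel phospholipids, 2 were higher at 1 h, and 3 were higher and 1 lower at 4 h. *Lpcat2* rose by 0.79 at 4 h (adjusted p = 0.000386 by edgeR) and *Lpcat1* fell by 0.56 (adjusted p = 2.38e-05). Of 3 genes for partners of these enzymes, 2 were higher at 4 h: *Bscl2*, which encodes the lipid droplet protein seipin (0.33, adjusted p = 0.00166), and *Cnep1r1*, which encodes a subunit of the phosphatase that acts on lipins (0.25, adjusted p = 0.0157).

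The counts of these lists are those without the mouse in the fit. With it as a block, the 45 genes gave 12 calls at 1 h, 24 at 4 h and 25 between the times, against 8, 20 and 18, and no call was lost. The share of all tested genes called rose as well, to 13.3% higher and 13.7% lower at 1 h, 23.6% and 23.8% at 4 h, and 23.0% and 23.6% between the times, so the larger counts are not read as a result about these genes. Beside *Cds1*, *Cds2* and *Dgat2*, the calls added against untreated BMDMs were *Etnk1* (0.22, adjusted p = 0.0198) and *Lpcat2* (0.17, adjusted p = 0.0236), higher at 1 h, and *Chka*, a choline kinase (-0.20, adjusted p = 0.0487), and *Ctdnep1*, the catalytic partner of *Cnep1r1* (-0.12, adjusted p = 0.0395), lower at 4 h. Those added between the times were *Gk*, *Dgat1*, *Dgka* and *Lpcat3*, higher at 4 h, and *Dgat2*, *Cept1* and *Lpcat4*, lower.

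**Figure D4:**
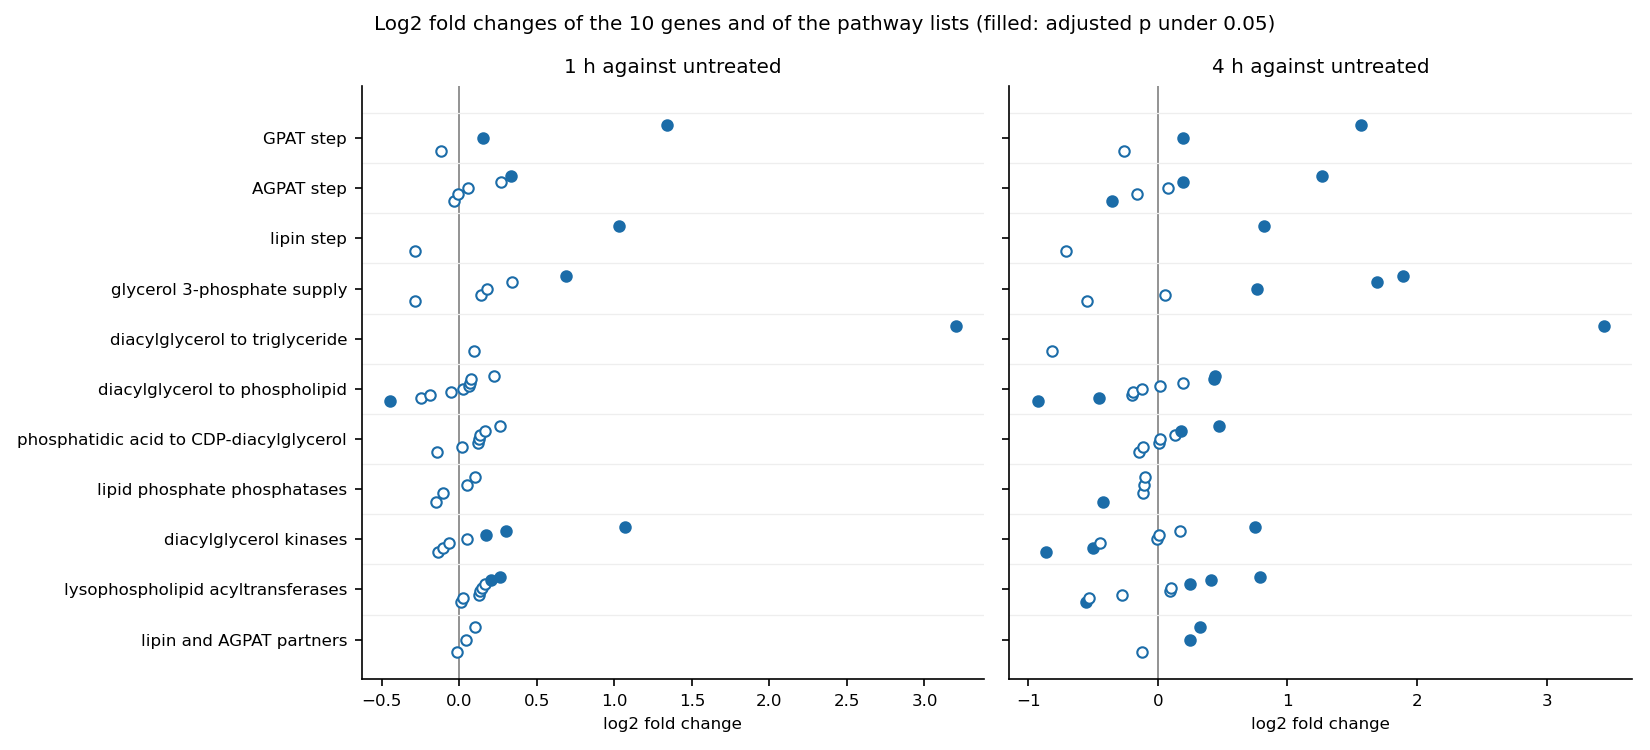
Log2 fold changes (horizontal axes, of different range) of the 10 genes by step and of the tested genes of the pathway lists, at 1 h and 4 h against untreated BMDMs, with 1 dot per gene, filled where the adjusted p was below 0.05 by edgeR. *Dgat1* stands apart at 3.20 and 3.44, and at 4 h filled dots lie on both sides of 0 at the AGPAT step.

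Pearson's r of log2 normalized counts, with 1 added, was taken over the 12 libraries against genes with a mean normalized count of 50 or more. For the 3 genes of the 10 with the largest changes, it gave the genes with the most similar pattern. These were *Vdr*, *Ocrl* and *Itpa* for *Agpat4* (r 0.987, 0.987 and 0.986), *Mrtfa*, *Ankrd33b* and *Dhrs11* for *Lpin2* (r 0.993, 0.982 and 0.978), and *Lrrc8b*, *Gm49759* and *Ostc* for *Gpat3* (r 0.947, 0.947 and 0.933). *Gpat3* itself lay below that mean, with at most 49.9 normalized counts in a library, so its r values rest on few reads. The points share their libraries and treatment, and the values are a description of these libraries.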

How the data were processed

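Stranded mRNA libraries of 12 BMDM cultures were sequenced as single-end reads of 50 bases. The authors mapped them to GRCm38 with TopHat2 2.0.11, counted them per gene with HTSeq 0.8.0 and deposited raw counts, 1 column per library. The strand option and annotation release are not given in the sources used here. Symbols and lengths came from GENCODE M21, which matched 53274 of 53379 genes.

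Groups came from the labels. Counts were filtered with filterByExpr on the 3 groups, scaled by TMM (factors 0.953 to 1.04) and tested with edgeR 4.0.16 in R 4.3.3 by the quasi-likelihood test, in 1 fit over 12 libraries without a covariate. Benjamini-Hochberg adjustment ran over the 12386 genes tested in each comparison, with a threshold of 0.05. The biological coefficient of variation was 0.112. The SE is the log2 fold change divided by the root of the F statistic, and 95% intervals used 9 degrees of freedom. Same-numbered libraries came from the same mouse by their titles. Their deviations from the group means correlated at r 0.291 to 0.561 (12 pairs), and those of different mice at -0.3 to 0.0849 (36 pairs). Deviations within a group sum to 0, so positive values for the same mouse push those of different mice below 0 on average.

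Alternatives were DESeq2 1.42.0, limma-voom (limma 3.58.1), RLE scaling, library size only, no filter, a mean count of at least 50, the 2 groups compared alone, the mouse as a block, each library left out and other gene lengths. The block with each mouse left out and the order of levels by other lengths were added after seeing the data. Scripts were tested on simulated counts. The 10 genes and all lists were chosen with earlier results of these data known. Of each pathway list, the text names up to 2 called genes with the largest change, where the mean normalized count was 50 or more, and, added after seeing the values, *Etnk1*, *Pcyt1b* and the genes whose call the block changed. It names for the 3 genes of the 10 with the largest changes the 3 genes most like each. The values of 1 macrophage marker are not reported here. Figures were drawn with matplotlib 3.10.9.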

Additional observations from a re-analysis of the deposited data

Results flagged for a closer look

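The *Gpat3* value of mouse 4 at 4 h lay apart from its group, at 49.9 normalized counts against 36.1 to 37.5 in the other 3 mice (gap over range 0.896). It was the only one of 30 groups of 4 libraries to exceed Dixon's 95% critical ratio, where chance alone gives about 1.5.

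The response at 4 h differed from that at 1 h in the direct test between the times for 4 of the 10 genes, *Agpat1* (log2 fold change 0.20), *Agpat2* (-0.32), *Agpat3* (-0.21) and *Agpat4* (0.93). Over all tested genes 18.7% were higher and 19.8% lower at 4 h than at 1 h, so 4 of 10 is near the background. The call of *Agpat3* was lost when libraries were scaled by size only (adjusted p = 0.179 by edgeR). With the mouse as a block these 4 held, and *Lpin1* (-0.47, adjusted p = 0.000292) and *Lpin2* (-0.22, adjusted p = 0.00595) differed as well.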

How the results depend on the processing

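The calls of *Gpat3*, *Agpat4* and *Lpin2* against untreated BMDMs kept their direction and side of the threshold under every alternative that tested them. A minimum mean count of 50 removes *Gpat3*. With 1 library left out, the number of the 10 genes called was 3 to 4 at 1 h, 6 to 7 at 4 h and 3 to 5 between the times. That of the pathway genes was 5 to 10, 20 to 21 and 16 to 20. Over all tested genes, 16.7% to 19.8%, 35.6% to 39.7% and 33.5% to 37.8% were called in these fits. With the mouse as a replicate block, the 10 genes gave 6, 9 and 6 calls against 4, 6 and 4. The pathway genes gave 12, 24 and 25 against 8, 20 and 18. The share of all tested genes called rose as well, to 27.0%, 47.4% and 46.6% against 20.1%, 40.0% and 38.5%. Among the 10 genes, the block changed no call other than those given in the report. With mouse 4 also left out, 7 of the 10 were called between the times, against 42.4% of all tested genes (46.6% with all mice). Scaling by library size only left 5 pathway genes at 1 h, against 23.6% of all tested genes. The value of *Agpat1* at 1 h turned to 0.000104 with only the 2 groups compared, to 0.0124 in the block without mouse 2, and ranged from -0.0316 to 0.0157 with 1 library left out. That of *Agpat2* at 1 h ranged from -0.0783 to 0.00371, and that of *Agpat3* at 1 h was -0.0118 with library size only. The cause was not tested. By the longest transcript, the share of *Gpat4* was 85.6%, 86.1% and 87.0% in the 3 groups and that of *Lpin2* at 1 h 87.1%. By coding length, *Gpat4* held 90.6%, 91.1% and 91.7%, *Agpat1* 35.6%, 34.1% and 38.1%, and *Lpin2* at 1 h 87.1%. Depth limits *Gpat3*, with 5 to 23 reads per untreated library.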
